A study of Mus musculus with 12 samples.

Results

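The nuclear subunits of complexes II to V of the oxidative phosphorylation system were examined in epididymal white adipose tissue (eWAT) of mice. Members were chosen by gene symbol, as the Sdh genes of complex II, the Uqcr genes and Cyc1 of complex III, the Cox4i, Cox5, Cox6, Cox7 and Cox8 genes of complex IV and the Atp5 genes of complex V, without the pseudogene Atp5l-ps1 and without Cox8b and Cox7a1. This gave 45 of the 23474 genes with a measured value, 4 in complex II, 9 in complex III, 15 in complex IV and 17 in complex V. Cox4i1, which also meets the choice, was not analysed here. The symbols also take in Atp5s, a coupling factor rather than a subunit of the enzyme, and Cox7a2l, which joins complexes III and IV into supercomplexes.

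Complexes II, III and IV pass electrons from succinate and ubiquinol to oxygen, and complexes III and IV pump protons across the inner mitochondrial membrane as they do so. Complex V, the ATP synthase, lets the protons flow back and makes ATP. Complex II is built from nuclear genes alone, whereas the other complexes combine nuclear subunits with a few made from mitochondrial DNA, and several complex IV subunits have isoforms for heart and muscle, lung or testis.

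The values were FPKM, a count of fragments divided by transcript length and by library depth, in 12 RNA-seq libraries with 3 in each of 4 groups. Male C57BL/6J mice that were 17 weeks old had received for 12 weeks a normal diet (ND), a high-fat diet (HFD), the HFD with an ethanol extract of green tea (GT) at 0.25% (w/w), or the HFD with Taeeumjowuitang (TJ) at 3% (w/w), a Korean herbal medicine of mixed plant extracts. The GT and TJ groups thus shared the HFD with their controls. Each group held 10 mice and each library was made from 1 of them, so the p-values rest on the spread between 3 mice. Whole tissue was sequenced, and in such samples fewer cells of a type and less RNA per cell cannot be told apart.

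Some libraries stood apart. ND replicate 1 held transcripts of sperm cells and of the epididymis, the duct beside this fat depot. Summed over 12 germ cell genes it reached 102600 FPKM, against 196 and 3418 FPKM in ND replicates 2 and 3, 2282, 67.2 and 47.6 FPKM in the HFD replicates and at most 106 FPKM in any GT or TJ library. Its sum over 8 epididymal genes was 15390 FPKM, against 1279 FPKM in HFD replicate 2 and at most 43.0 FPKM elsewhere, and its sum over 7 adipocyte genes was 4159 FPKM, against 16370 to 59870 FPKM elsewhere. Adipoq, the adipokine that marks fat cells, was expressed in all 12 libraries, and it was lowest in ND replicate 1 at 202 FPKM. The depth was about 9.51M fragments in ND replicate 1 and 14.4M to 20.4M in the other libraries.

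Promoter sequences were taken from RefSeq (build GRCm38.p6) for 32 of the 45 members, each with 250 bases before and 50 bases after the start of the gene. They were searched on both strands for the sites of factors known to act on respiratory chain genes. The site of nuclear respiratory factor 1, GCGCANGCG, was in 12 of the 32 promoters (37.5%) and in 7.03% of all 27025 promoters. The site of ETS factors such as GABP, CCGGAAG, was in 12 (37.5%) and in 9.93% of all promoters. The half-site of the estrogen-related receptors, AAGGTCA, was in 5 (15.6%, against 5.38%), the YY1 site AAGATGGC in 2 (6.25%, against 3.19%), and TATAAA in 2 (6.25%, against 15.7%). Of the 9 members with a promoter that differed between TJ and HFD below, 5 held the first site, 5 the ETS site and 3 (Cox7a2, Uqcr10 and Uqcrfs1) neither. The promoters of the 4 of these 9 members with the highest log2 fold changes are shown, and that of Cox7b2, an isoform of the testis, for contrast. Each is on the minus strand, 5′ to 3′, and capitals mark every match to any of these motifs, where neighbouring matches can overlap.
Cox8a (chr19:7217567-7217866): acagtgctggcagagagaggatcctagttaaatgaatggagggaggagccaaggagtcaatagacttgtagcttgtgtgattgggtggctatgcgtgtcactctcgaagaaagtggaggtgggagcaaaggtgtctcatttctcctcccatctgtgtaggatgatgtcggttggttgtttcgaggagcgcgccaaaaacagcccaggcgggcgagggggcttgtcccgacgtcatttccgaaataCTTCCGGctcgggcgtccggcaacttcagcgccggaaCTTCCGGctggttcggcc
Uqcr11 (chr10:80406772-80407071): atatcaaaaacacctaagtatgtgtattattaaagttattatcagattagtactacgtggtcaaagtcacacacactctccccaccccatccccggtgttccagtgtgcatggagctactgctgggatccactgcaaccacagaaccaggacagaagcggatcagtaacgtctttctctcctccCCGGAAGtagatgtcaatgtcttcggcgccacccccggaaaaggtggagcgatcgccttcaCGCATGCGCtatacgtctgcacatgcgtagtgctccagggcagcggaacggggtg
Cox7a2 (chr9:79759804-79760103): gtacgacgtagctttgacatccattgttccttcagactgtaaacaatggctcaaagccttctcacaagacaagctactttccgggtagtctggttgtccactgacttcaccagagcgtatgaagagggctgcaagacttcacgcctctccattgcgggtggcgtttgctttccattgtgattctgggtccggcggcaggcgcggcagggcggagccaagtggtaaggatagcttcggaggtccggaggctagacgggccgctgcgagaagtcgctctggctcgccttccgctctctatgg
Uqcr10 (chr11:4704295-4704594): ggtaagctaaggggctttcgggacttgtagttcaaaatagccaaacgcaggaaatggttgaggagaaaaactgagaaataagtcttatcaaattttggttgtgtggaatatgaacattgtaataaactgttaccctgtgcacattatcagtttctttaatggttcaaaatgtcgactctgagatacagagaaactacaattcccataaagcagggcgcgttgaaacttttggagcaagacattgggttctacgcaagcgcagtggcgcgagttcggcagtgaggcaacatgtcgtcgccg
Cox7b2 (chr5:71548156-71548455): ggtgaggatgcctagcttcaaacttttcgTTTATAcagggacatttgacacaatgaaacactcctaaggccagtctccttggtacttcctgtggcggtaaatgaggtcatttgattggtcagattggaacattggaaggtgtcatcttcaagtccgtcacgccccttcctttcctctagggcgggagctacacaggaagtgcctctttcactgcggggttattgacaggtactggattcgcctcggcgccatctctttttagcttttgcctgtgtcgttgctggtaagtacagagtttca
The promoter of Cox8a held ETS sites only, that of Uqcr11 held sites of both kinds, those of Cox7a2 and Uqcr10 held no match to any of the motifs, and that of Cox7b2 held a TATA match and no other. A match is a stretch of letters, and binding was not measured here.

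Of the 45 members 39 had a mean of at least 5 FPKM in each of the 4 groups. The other 6 were Cox4i2, Cox6a2, Cox6b2, Cox7b2, Cox8c and Atp5s, of which 5 were complex IV genes. By mean FPKM in the HFD group, a level per length of transcript, Atp5b, the catalytic β subunit of the ATP synthase, came first with 945 ± 116 FPKM (SD, n = 3), and Atp5a1, its α subunit, came next with 366 ± 22.9 FPKM. Among the 39, Atp5g1, a gene of the ring of c subunits, was lowest at 29.96 ± 2.44 FPKM. The median of the HFD means of these 39 was 79.3 FPKM in complex II, 122 FPKM in complex III, 185 FPKM in complex IV and 158 FPKM in complex V.

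TJ was compared with HFD to see how the extract altered expression in mice on the same fat-rich diet. Subunits of all 4 complexes were higher in the TJ group. With limma and Benjamini-Hochberg adjustment over all 12807 genes tested, a member was called where its adjusted p was under 0.05 and it differed at least 1.5-fold. By these limits 11 of the 45 members were called higher and none lower, while 949 of all genes tested, 7.41%, were called higher and 1417, 11.1%, lower. With median-of-ratios scaling 1229 genes were higher and 1177 lower, and with quantile normalization 1543 and 1151, the median log2 fold change of all genes going from -0.14 to -0.03 and to 0.03. 0 members were called without the filter on low values, with all 12 libraries in the fit and with the replicate block. The calls were 1 of 4 in complex II, 4 of 9 in complex III, 3 of 15 in complex IV and 3 of 17 in complex V. At an unadjusted p under 0.05 there were 25 of the 45 members, against 41.4% of all genes tested. The fold change was above 0 for 40 of the 45 members, with a median log2 fold change of 0.60, against -0.14 over all genes tested. The complexes had medians of 0.46 (II), 0.68 (III), 0.60 (IV) and 0.63 (V), which fell to 0.08, 0.15, 0.05 and 0.07 with the length trend removed. For 32 members every TJ library was above every HFD library, against 20.1% of all genes tested.

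**Figure D1:**
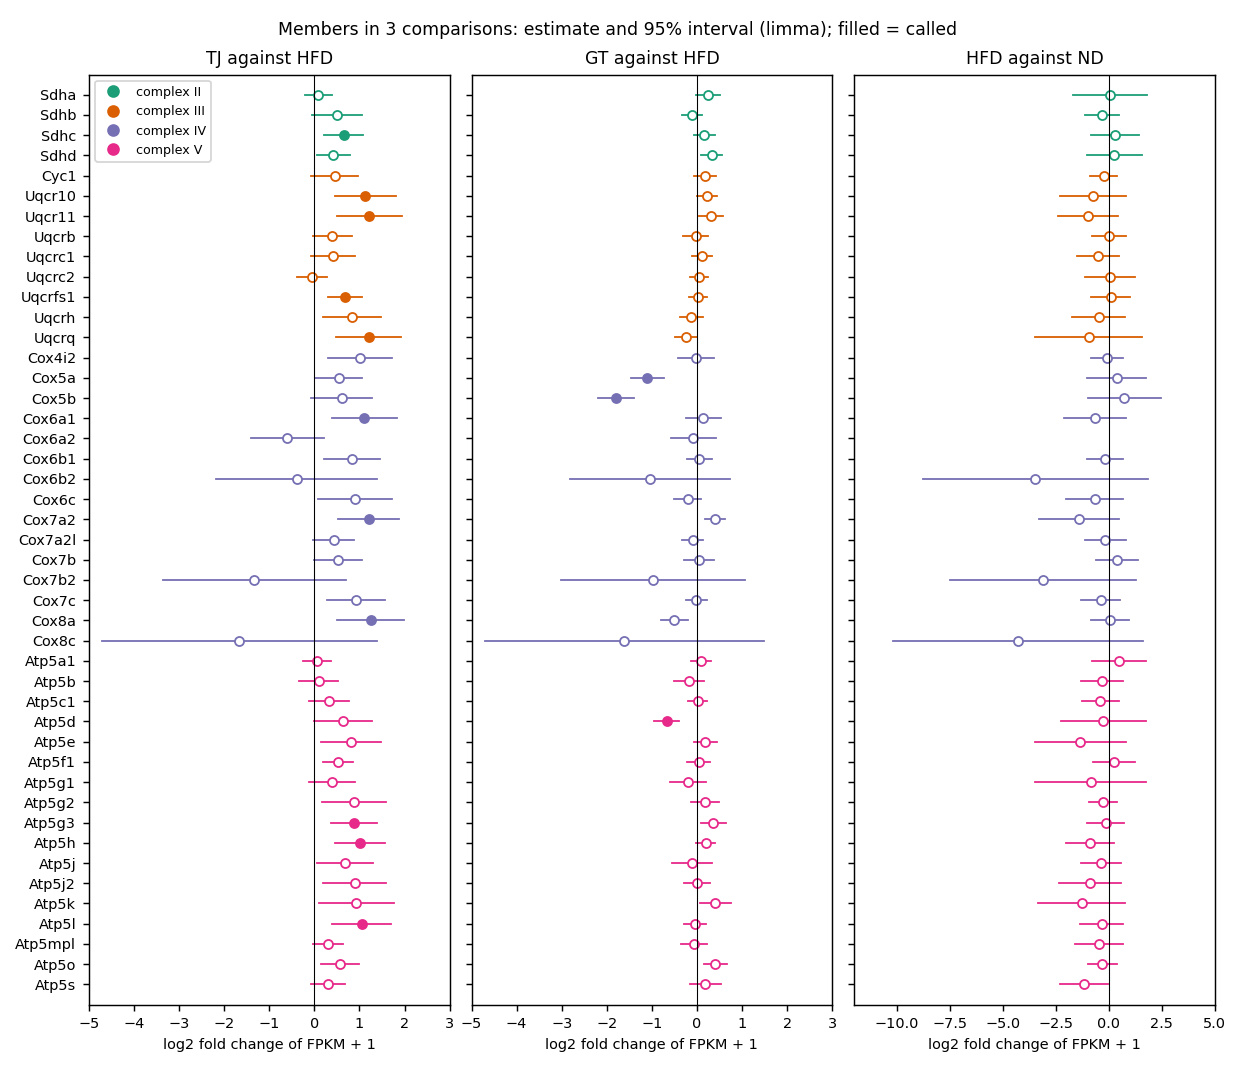
Log2 fold change of FPKM + 1 (horizontal axis) of each member, with its 95% interval, in TJ against HFD, GT against HFD and HFD against ND, coloured by complex. Filled points are called. 11 are filled in the left panel, all right of 0, 3 in the middle panel, all left of 0, and none in the right panel, whose axis is wider.

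The 3 TJ libraries differed. TJ replicate 2 held the highest TJ value for all 39 members with at least 5 FPKM, and TJ replicate 3 the lowest for 34 of them. The median of these 39 members was 190.0 FPKM in TJ replicate 1, 281 FPKM in TJ replicate 2 and 181 FPKM in TJ replicate 3, against 122 to 153 FPKM in the HFD libraries and 117 to 123 FPKM in the GT libraries. Without TJ replicate 2, 10 members were called higher, against 6.19% of all genes tested, and the median log2 fold change was 0.39. Without TJ replicate 3, 23 were called higher, against 9.67% of all genes tested, with a median of 0.80. With TJ replicate 1 or any 1 of the HFD replicates left out, 0 members were called and 0 of all genes tested, and the median was between 0.58 and 0.69. At an unadjusted p under 0.05 there were then 20 of 44 members without TJ replicate 1, against 32.8% of all genes tested, 23 of 42 without HFD replicate 1 (38.2%), 16 of 45 without HFD replicate 2 (30.2%) and 16 of 44 without HFD replicate 3 (29.0%).

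Complex II oxidises succinate and joins the tricarboxylic acid cycle to the respiratory chain. Sdhc, which helps to anchor the enzyme in the membrane, had 91.4, 110.3 and 71.5 FPKM in the TJ group and 54.2, 54.5 and 61.9 FPKM in the HFD group. Every TJ library was above every HFD library, and here as in the following parentheses the log2 fold change comes first, then its standard error and the adjusted p of limma (0.65, SE 0.18, adjusted p = 0.0472). Sdhd, the other anchor, had 125, 140.2 and 106 FPKM with TJ and 96.8, 83.6 and 95.4 FPKM with HFD, without overlap, and was not called (0.42, SE 0.15, adjusted p = 0.0876). Sdhb, the iron-sulfur subunit, had 79.4, 139 and 77.4 FPKM against 68.3, 62.7 and 69.1 FPKM. Its groups did not overlap either, and TJ replicate 2 lay far above the other TJ libraries (0.50, SE 0.24, adjusted p = 0.150). Sdha, the flavoprotein that binds succinate, had 169.5, 172 and 166 FPKM against 143, 168 and 168 FPKM, and its groups overlapped. Its log2 fold change was 0.09 with a 95% interval from -0.22 to 0.40.

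In complex III the members called were small subunits and the Rieske protein. Uqcr11 had 277, 530.2 and 233 FPKM in the TJ group against 152, 122 and 146 FPKM in the HFD group (1.21, SE 0.31, adjusted p = 0.0393). Uqcrq, known as the ubiquinone-binding protein of the complex, had 280.0, 439 and 181 FPKM against 133, 113 and 118 FPKM (1.21, SE 0.31, adjusted p = 0.0395). For Uqcr10, another small membrane subunit, the values were 315, 533 and 234 FPKM against 157, 145 and 163 FPKM (1.13, SE 0.29, adjusted p = 0.0402). In each of these 3 genes the lowest TJ library, replicate 3, lay above all HFD libraries. Uqcrfs1, the Rieske iron-sulfur protein that takes electrons from ubiquinol, had 116, 143 and 99.7 FPKM with TJ and 73.7, 73.0 and 73.8 FPKM with HFD (0.68, SE 0.16, adjusted p = 0.0352). The HFD libraries were almost equal for this gene, and the TJ libraries were all higher. Uqcrc2, a core protein on the matrix side, had 77.9, 99.7 and 84.8 FPKM against 90.6, 90.1 and 90.6 FPKM. It was the one complex III member with a fold change below 0, and its log2 fold change of -0.06 had an interval from -0.38 to 0.27. Cyc1, the cytochrome c1 that hands electrons to cytochrome c, was at 114 ± 34.5 FPKM with TJ and 81.2 ± 8.18 FPKM with HFD (0.45, SE 0.22, adjusted p = 0.162). The other 3 members, Uqcrb, Uqcrc1 and the hinge protein Uqcrh, had log2 fold changes of 0.40, 0.41 and 0.83 and were not called. With the length trend removed these were -0.336, 0.146 and 0.106.

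In complex IV, Cox8a had the highest log2 fold change of any member as tested. With the length trend removed it was at 0.52, below Uqcrq and Sdhc at 0.70 and Cox7a2 at 0.54, and with quantile normalization it was at 0.93, below Cox4i2 at 1.28, Cox7a2 at 1.12, Uqcrq and Uqcr11. It encodes the ubiquitous form of the smallest subunit of the enzyme. Its values were 554, 970.2 and 395 FPKM in the TJ group and 275, 232 and 248 FPKM in the HFD group, without overlap (1.25, SE 0.31, adjusted p = 0.0393). Cox7a2, the form of subunit 7a found in most tissues, had 119, 208 and 91.4 FPKM against 59.8, 53.3 and 56.8 FPKM (1.20, SE 0.29, adjusted p = 0.0361). Cox6a1, likewise the common form of its subunit, had 455, 839 and 387 FPKM against 276, 202 and 265 FPKM (1.11, SE 0.30, adjusted p = 0.0449). All 3 TJ libraries of each gene were above the HFD libraries, with replicate 2 highest. Cox7c, Cox6c, Cox6b1, Cox5b, Cox5a, Cox7b and Cox7a2l had log2 fold changes from 0.43 (Cox7a2l) to 0.92 (Cox7c), and none was called. With the length trend removed they ran from -0.13 (Cox5a) to 0.21 (Cox6c), with Cox7a2l also below 0 at -0.036. Cox4i2, the form of subunit 4 known from lung and from low oxygen, was scarce, at 3.28, 8.62 and 4.93 FPKM against 2.24, 2.41 and 1.68 FPKM. It was higher in every TJ library but was not called (1.01, SE 0.30, adjusted p = 0.0533). The heart and muscle form Cox6a2 had 1.37, 0.137 and 0.478 FPKM against 1.42, 0.989 and 1.89 FPKM with overlap between the groups (-0.60, SE 0.34, adjusted p = 0.216). Its highest value in any library was 1.89 FPKM.

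**Figure D2:**
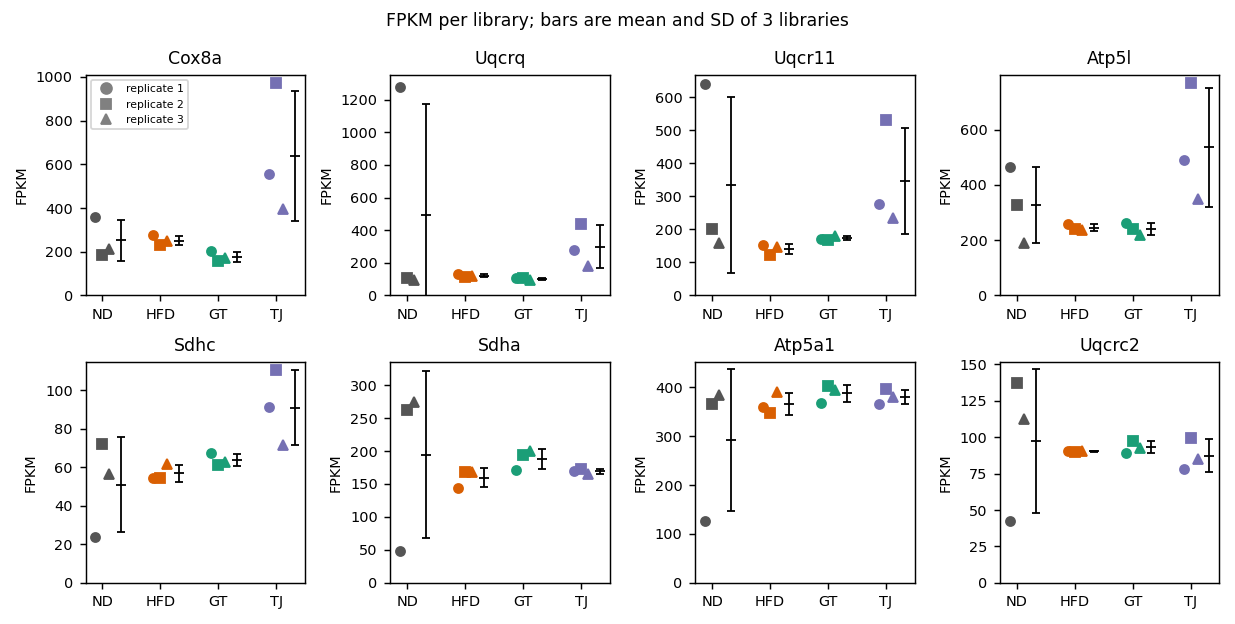
FPKM (vertical axis, from 0) of 5 members that were called in TJ against HFD (Cox8a, Uqcrq, Uqcr11, Atp5l, Sdhc) and 3 that were not (Sdha, Atp5a1, Uqcrc2) in each library. Marker shapes give the replicate, and bars give the mean ± SD of 3 libraries, cut off at 0. For the 5 called members TJ replicate 2 is the highest TJ library, and ND replicate 1 is the highest or the lowest ND library for each of the 8 genes.

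In complex V, all 17 members had log2 fold changes above 0, against 13 with the length trend removed (median 0.07) and 15 with quantile normalization, and those called were Atp5l, Atp5h and Atp5g3. All belong to the membrane part and the stalk of the enzyme. Atp5l, subunit g of the membrane part, had 490.1, 770.5 and 349 FPKM with TJ and 259, 242 and 237 FPKM with HFD (1.05, SE 0.28, adjusted p = 0.0430). Atp5h, subunit d of the peripheral stalk, had 294, 449 and 239 FPKM against 167, 149.6 and 153 FPKM (1.01, SE 0.24, adjusted p = 0.0346). Atp5g3, one of 3 genes for subunit c of the rotating ring, had 593, 774 and 454 FPKM against 358, 313 and 304 FPKM (0.87, SE 0.21, adjusted p = 0.0380). None of the 3 had a TJ library within the range of the HFD libraries. The α and β subunits of the catalytic head had fold changes near 0. For Atp5a1 the values were 366, 396 and 379 FPKM against 359.7, 347 and 391 FPKM, and the interval of its log2 fold change of 0.06 ran from -0.25 to 0.36. For Atp5b they were 839, 1150.2 and 1039.7 FPKM against 814, 987 and 1034 FPKM, with a log2 fold change of 0.09 and an interval from -0.34 to 0.52, and it turned to -0.10 with the length trend removed and to -0.24 with quantile normalization. Both sets of libraries overlapped. The subunits of the central stalk, Atp5c1, Atp5d and Atp5e, had log2 fold changes of 0.32, 0.63 and 0.81. With the length trend removed these were -0.106, 0.20 and -0.0056. Among the remaining stalk and membrane subunits, Atp5f1 passed the p threshold (0.52, SE 0.14, adjusted p = 0.0440) but not the fold threshold, and Atp5k, Atp5j2, Atp5g2, Atp5j, Atp5o, Atp5g1 and Atp5mpl had log2 fold changes from 0.31 (Atp5mpl) to 0.93 (Atp5k).

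The members are encoded by short transcripts, with a median length of 730 nt against 2368 nt over all genes, and fold changes moved with length. In TJ against HFD the Spearman correlation of log2 fold change with transcript length was -0.40 across the 45 members and -0.35 across all genes tested, as a description across genes that share the same libraries. The 28 members with transcripts under 1000 nt had a median log2 fold change of 0.88, and the 17 longer ones 0.42. Among the longer ones were Sdha, Uqcrc2, Atp5a1 and Atp5b, and also Sdhc and Uqcrfs1, which were called. When a smooth trend with length was removed from all genes, the median of the members fell to 0.11 and 2 of the 45 members, Sdhc and Uqcrq, were called higher, against 5.68% of all genes tested.

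**Figure D3:**
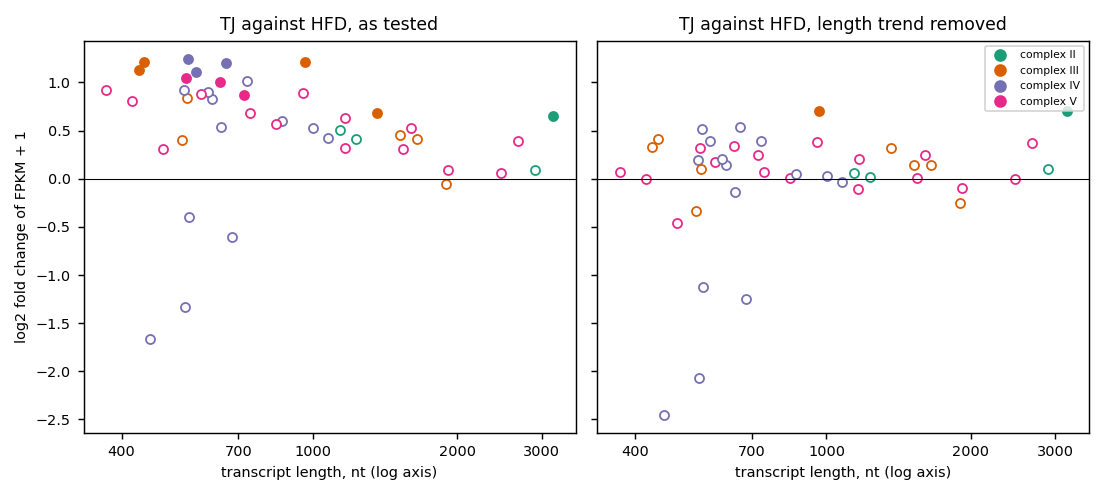
Log2 fold change of FPKM + 1 in TJ against HFD (vertical axis) of each member by transcript length in nt (horizontal axis, log scale), as tested on the left and after removal of the length trend of all genes on the right. Filled points are called. On the left most called members lie below 1000 nt, and on the right 2 of 45 points are filled.

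Markers of other cells moved with the same groups. Summed over 7 macrophage genes the HFD libraries were at 2828 to 3978 FPKM, the GT libraries at 1180 to 2597 FPKM and the TJ libraries at 712 to 2095 FPKM, with TJ replicate 2 lowest. Of these genes 6 of 7 were called lower in TJ against HFD. The sum over the 7 adipocyte genes was 16370 to 19030 FPKM with HFD, 23440 to 27180 FPKM with GT and 29050 to 59870 FPKM with TJ, with TJ replicate 2 highest, and 6 of 7 were called higher in TJ against HFD. In GT against HFD 3 adipocyte genes were called higher and no macrophage gene lower. Their part in the differences among the members was not tested. Skeletal muscle markers summed to at most 18.1 FPKM in any library, and 6 brown adipocyte markers to 29.0 to 178 FPKM, with no call higher in TJ against HFD and 1 lower.

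Neighbouring parts of the system were read from lists of their own. Of 37 genes with symbols of nuclear subunits of complex I, the entry point for electrons from NADH, 20 were called higher in TJ against HFD and none lower. Their median log2 fold change was 0.92, and 7.41% of all genes tested were called higher. This list takes in Ndufa4, which is given again below. Of 12 tested protein genes of the mitochondrial DNA, 5 were called higher and none lower, with a median of 0.77, and mt-Co1, the catalytic subunit of complex IV, was at 22420, 23400 and 16250 FPKM with TJ against 11360, 12600 and 12600 FPKM with HFD (0.75, SE 0.21, adjusted p = 0.0454, limma). Among the 5 partners of these complexes, Ndufa4, which is counted with complex IV, was called higher, at 538, 825 and 437 FPKM against 284, 265 and 251 FPKM (1.12, SE 0.24, adjusted p = 0.0297, limma). None of these calls was kept with TJ replicate 1 or any 1 of the HFD replicates left out, where 0 of all genes tested were called. With all 12 libraries in the fit 1 of all genes tested was called. Of the 7 regulators of mitochondrial genes, which include Nrf1, Gabpa, Esrra, Yy1 and Tfam, 5 were tested and none was called. Gabpa, a subunit of the ETS factor GABP, was at 9.68, 6.71 and 13.3 FPKM with TJ against 13.2, 20.0 and 17.2 FPKM with HFD (-0.73, SE 0.25, adjusted p = 0.076, limma). Its exons overlap those of Atp5j on the other strand, as those of Pdzd9, Haus1, Wdr77, Gm10767, Itgad and D430001F17Rik overlap Uqcrc2, Atp5a1, Atp5f1, Uqcrb, Cox6a2 and Atp5o. The exons of Gm26631 overlap Cox5a by 269 bases, those of Gm30934 overlap Atp5l by 133 bases and those of Gm42890 overlap Atp5f1, also on the other strand, and these 3 genes have no value here. Without strand marks in the library kit their reads cannot be told apart. A second gene annotated as Atp5o also shares exon sequence with the measured one.

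GT was compared with HFD to set green tea extract beside TJ. Apart from 3 members that were lower, none was called. The median log2 fold change of the 45 members was 0.02, against -0.12 over all genes tested, and 24 were above 0. With median-of-ratios scaling the medians were 0.13 and -0.02 and 32 members were above 0, and with the length trend removed the median of the members was -0.02 and 21 were above 0. By the same rule 0 members were called higher, against 1.83% of the 12766 genes tested, and 3 were called lower, Cox5b, Cox5a and Atp5d, against 1.81% (231 genes). With median-of-ratios scaling 367 genes were called higher and 154 lower, and with quantile normalization 405 and 162. The call of Atp5d was lost with median-of-ratios scaling, and all 3 calls were lost without the filter on low values, with all 12 libraries in the fit and with the replicate block, where 5, 1 and 5 of all genes tested were called. At an unadjusted p under 0.05 there were 10 of the 45 members, against 29.3% of all genes tested. Cox5a and Cox5b encode the nuclear subunits that cap complex IV on the matrix side, and Atp5d encodes the δ subunit in the central stalk of the ATP synthase.

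Cox5b had 59.7, 38.1 and 46.0 FPKM in the GT group, with a mean of 48.0 ± 10.9 FPKM (SD, n = 3), and 176, 168 and 156 FPKM in the HFD group, with a mean of 167 ± 9.81 FPKM. The groups were apart (-1.80, SE 0.16, adjusted p = 0.0208). Cox5a had 52.9, 43.9 and 37.2 FPKM against 109, 85.1 and 95.2 FPKM, means of 44.7 ± 7.85 FPKM and 96.5 ± 12.2 FPKM (-1.10, SE 0.16, adjusted p = 0.0338). For both genes the highest GT library was far below the lowest HFD library. Atp5d had 70.7, 61.6 and 62.1 FPKM against 112, 92.2 and 108 FPKM, also without overlap (-0.68, SE 0.11, adjusted p = 0.0379). Cox8a had 203, 159 and 170.5 FPKM against 275, 232 and 248 FPKM, and its groups did not overlap either, but it was not called (-0.50, SE 0.13, adjusted p = 0.0648). Cox6b1 stood for the subunits that hardly differed, with 335, 329 and 297 FPKM against 352, 282 and 296 FPKM, overlapping groups and an interval from -0.22 to 0.33 around 0.05.

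**Figure D4:**
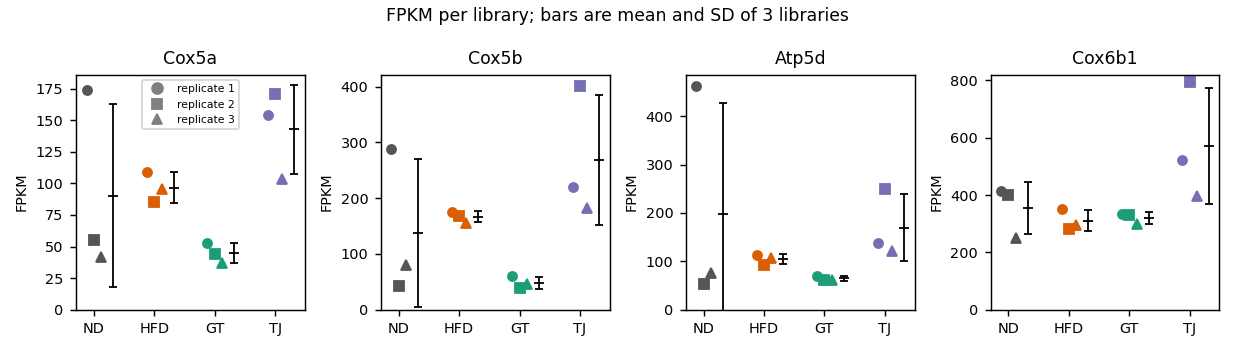
FPKM (vertical axis, from 0) of Cox5a, Cox5b and Atp5d, the 3 members called lower in GT against HFD, and of Cox6b1, which was not called, in each library. Marker shapes give the replicate and bars the mean ± SD of 3 libraries, cut off at 0. The GT libraries lie below all HFD and TJ libraries for the first 3 genes, and ND replicate 1 lies above ND replicates 2 and 3.

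No member of complexes II and III was called in GT against HFD. The Sdh genes had log2 fold changes of 0.24 (Sdha), -0.11 (Sdhb), 0.17 (Sdhc) and 0.33 (Sdhd). Sdhd had 122, 115 and 111 FPKM against 96.8, 83.6 and 95.4 FPKM, all GT libraries being higher (0.33, SE 0.10, adjusted p = 0.0914). In complex III the log2 fold changes ran from -0.23 for Uqcrq to 0.31 for Uqcr11. Among the complex V members Atp5k had the highest as tested, at 0.41, but with quantile normalization Atp5o was above it. In complex IV Cox7a2 had 0.41, with 81.1, 71.4 and 73.5 FPKM against 59.8, 53.3 and 56.8 FPKM. Every GT library of Cox7a2 was above the HFD libraries, and it was not called (0.41, SE 0.10, adjusted p = 0.0593).

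The calls changed when single libraries were left out, while the log2 fold changes stayed between -1.96 and -1.65 for Cox5b, between -1.23 and -0.98 for Cox5a and between -0.76 and -0.62 for Atp5d. Without GT replicate 2 or 3, or without HFD replicate 2 or 3, 0 members were called. Without HFD replicate 1, Cox5b alone was called, and 27 of the 12374 genes tested were called lower. Without GT replicate 1 there were 4 calls, Cox8a in addition. In the same fits the calls over all genes fell from 464 to 4 without GT replicate 2 and to 5 without GT replicate 3, to 5 without HFD replicate 2 and to 7 without HFD replicate 3, and rose to 1107 without GT replicate 1.

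TJ was then compared with GT directly, over 42 members that reached the mean of 1 FPKM. Cox5b was the 1 member called, higher with TJ at 221, 402 and 182 FPKM against 59.7, 38.1 and 46.0 FPKM, and 17 of 12187 genes tested, 0.139%, were called higher. The groups were far apart (2.399, SE 0.31, adjusted p = 0.0463), the lowest TJ library being at 182 FPKM and the highest GT library at 59.7 FPKM. Cox5a (1.64, SE 0.23, adjusted p = 0.0565), Cox8a (1.75, SE 0.31, adjusted p = 0.0791), Uqcrq (1.44, SE 0.30, adjusted p = 0.1) and Atp5d (1.30, SE 0.26, adjusted p = 0.1) had the next largest log2 fold changes and were not called, with their groups apart. The call of Cox5b was lost without TJ replicate 1 or any 1 of the GT replicates, with a pseudocount of 0.1, with another filter or none, with median-of-ratios scaling, with all 12 libraries in the fit and with the GC trend removed, where its adjusted p (limma) ran from 0.0525 to 0.487. Its log2 fold change stayed between 2.07 and 2.63 with any library left out and was 2.42 with median-of-ratios scaling. The median over the 42 members was 0.63, against -0.03 over all genes tested, and 39 members were above 0. With the length trend removed the median was 0.09 and 26 members were above 0. Without TJ replicate 2 or 3, 4 members were called higher, and 0.575% and 0.501% of all genes tested. By complex the medians were 0.28 (II), 0.65 (III), 0.95 (IV) and 0.52 (V), and with the length trend removed 0.03, 0.06, 0.21 and -0.02. As tested, the smallest values were those of -0.15 for Sdha and -0.09 for Uqcrc2. The comparisons with HFD share the HFD libraries, and this one shares the TJ and GT libraries with them.

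HFD was compared with ND for the effect of the diet itself. No member was called. Over 44 members the median log2 fold change was -0.32, against 0.07 over all genes tested, 11 members were above 0, and 1 of the 44, Atp5s, had an unadjusted p under 0.05, against 11.6% of all genes tested. With the replicate number as a block these were 3 other members, the testis isoforms Cox8c, Cox6b2 and Cox7b2 described below, against 15.5% of all genes tested. With median-of-ratios scaling the medians were -0.54 for the members and -0.12 for all genes, and with quantile normalization -0.12 and 0.06. With the length trend removed the median of the members turned to 0.37 and 33 of the 44 members were above 0. Of the 14430 genes tested 1.73% were called higher and 0.0416% lower, and none with the replicate number as a block. The ND libraries were far apart, so that most intervals were wide. Uqcrq, for example, had 1281, 105 and 95.7 FPKM in the ND group, its log2 fold change was -0.95 and its interval ran from -3.47 to 1.57. Without ND replicate 1 it was at 0.27. Of the 39 members with at least 5 FPKM, 25 were highest in ND replicate 1 among the ND libraries and 11 were lowest there. Sdha was of the second kind, with 47.9, 262 and 274 FPKM in the ND group.

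Without ND replicate 1, 4 members were called over 13661 genes, of which 11% were called higher and 4.34% lower. Cox5b and Cox5a were higher with HFD, at 176, 168 and 156 FPKM and 109, 85.1 and 95.2 FPKM, against 42.7 and 79.7 FPKM and against 55.5 and 42.1 FPKM in the ND libraries that remained. The log2 fold changes were 1.495 (SE 0.27, adjusted p = 0.0223, limma) and 0.98 (SE 0.18, adjusted p = 0.0229, limma). Sdha was lower, at 143, 168 and 168 FPKM against 262 and 274 FPKM (-0.75, SE 0.12, adjusted p = 0.0169, limma), and so was Atp5s, at 4.79, 4.71 and 4.05 FPKM against 7.93 and 7.95 FPKM (-0.70, SE 0.16, adjusted p = 0.0422, limma). With all 6 libraries Cox5b was at 0.73, Cox5a at 0.37, Sdha at 0.07 and Atp5s at -1.16. The median over the members without ND replicate 1 was -0.13. This fit took no account of the replicate numbers. With the number as a block and the same library left out, 0 members were called, 7 of 44 had an unadjusted p under 0.05, against 20.6% of all genes tested, and the median was -0.18, while 435 genes were called higher and 66 lower. In these fits 2 ND libraries stand against 3 HFD libraries, and the choice to leave out this library followed from its germ cell transcripts.

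Among the tissue isoforms, Cox8c, Cox6b2 and Cox7b2 are known as the testis forms of complex IV subunits. Cox8c had 1651, 4.28 and 43.5 FPKM in the ND group and 38.0, 0.383 and 0 FPKM in the HFD group, and at most 0.544 FPKM in any GT or TJ library. Cox6b2 had 1076, 2.05 and 20.9 FPKM in the ND group and 12.6, 0.748 and 1.29 FPKM in the HFD group. Cox7b2 had 201, 1.19 and 20.9 FPKM in the ND group and 10.4, 0.157 and 0.219 FPKM in the HFD group. For all 3 genes the 3 highest libraries were ND replicate 1, ND replicate 3 and HFD replicate 1, in that order, which were also the 3 highest for the summed germ cell genes. Over the 12 libraries the Spearman correlation with that sum was 0.83 for Cox8c, 0.59 for Cox6b2 and 0.94 for Cox7b2, as a description over libraries of 4 groups. Cox7b2 was listed at 0 in all 3 TJ libraries and was the one member with every TJ library below every HFD library, whereas Cox6b2 was at 1.36, 3.44 and 1.29 FPKM. No test called any of the 3 genes. The groups of the comparison between HFD and ND overlapped for each of them.

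**Figure D5:**
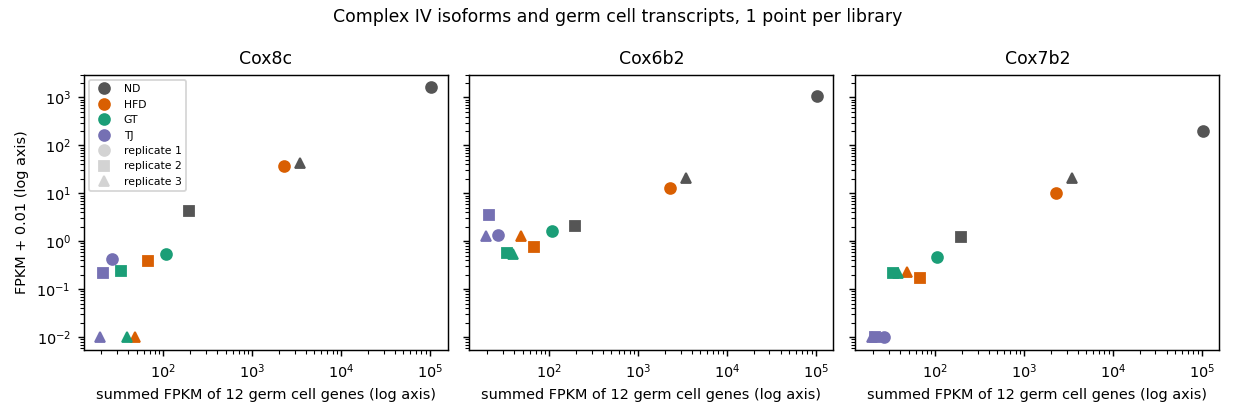
FPKM + 0.01 (vertical axis, log scale) of Cox8c, Cox6b2 and Cox7b2 against the summed FPKM of 12 germ cell genes (horizontal axis, log scale), with 1 point for each of the 12 libraries, coloured by group and with marker shapes for the replicate. ND replicate 1 lies at the upper right of each panel, followed by ND replicate 3 and HFD replicate 1, and points at the bottom are libraries listed at 0.

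The testis forms were compared with their common counterparts as shares of the summed FPKM of both. Cox8c made up 82.1% of Cox8a and Cox8c together in ND replicate 1, 2.24% and 17.1% in ND replicates 2 and 3, 12.1% in HFD replicate 1 and at most 0.267% in every other library. Cox7b2 made up 87.9% of its pair with Cox7b in ND replicate 1, 29.6% in ND replicate 3 and 16.8% in HFD replicate 1, and Cox6b2 made up 72.3%, 7.68% and 3.47% of its pair with Cox6b1 in the same libraries. In the other 9 libraries these 2 shares were at most 1.62% and 0.511%. Cox6a2, at most 1.89 FPKM, made up 0.513%, 0.488% and 0.710% of its pair with Cox6a1 in the HFD libraries, 0.379%, 0.585% and 0.472% in the GT libraries, 0.300%, 0.0163% and 0.123% in the TJ libraries and at most 0.0585% in the ND libraries. Its TJ shares were below all HFD and GT shares, and its ND shares below all HFD shares. Cox6a1, the other gene of the pair, was itself called higher in TJ against HFD. The exons of Cox6a2 share 70 bases with those of Itgad on the other strand, and the part of reads from Itgad in these shares was not tested.

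The 3 Atp5g genes encode the same mature c subunit with different targeting sequences. Atp5g3 supplied most of the summed FPKM, 80.4% to 87.5% in the 11 libraries other than ND replicate 1, where it made up 43.4% and Atp5g1 47.3%. Atp5g1 made up 7.40%, 7.18% and 7.99% in the HFD libraries, against 5.78%, 5.44% and 5.36% in the TJ libraries and 5.96%, 5.14% and 4.67% in the GT libraries. Its HFD shares were above those of both supplemented groups. The difference in means was -2 percentage points for TJ and -2.27 for GT, and the two-sided exact permutation test gave p = 0.1 in each case, the smallest that 3 libraries against 3 allow (adjusted p = 0.35 over 28 tests). The same p was given by 8 of the 28 tests, the others being Atp5g3 in GT against HFD (3.2 percentage points), Cox6a2 in TJ against HFD (-0.424), TJ against GT (-0.332) and HFD against ND (0.536), and Cox7b2 in TJ against HFD (-5.78) and TJ against GT (-0.448). The length used for Atp5g1 was 2675.5 nt, and those for Atp5g3 and Atp5g2 were 718.5 and 586 nt. Each is a median over principal transcripts and need not be the length of any of them, and the removal of the length trend rests on it. In TJ against HFD the log2 fold change of Atp5g1 was 0.39, below those of Atp5g3 at 0.87 and Atp5g2 at 0.88. With the length trend removed this order turned, with Atp5g1 at 0.37, Atp5g3 at 0.24 and Atp5g2 at 0.175. Atp5g2 made up 10.2%, 14.0% and 10.4% with TJ and 10.6%, 10.9% and 11.6% with HFD, with overlap.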

How the data were processed

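The study sequenced mRNA of eWAT (Illumina TruSeq, no strand mark) from 3 mice in each of 4 groups. The authors filtered reads by quality, mapped them with STAR and computed FPKM with Cufflinks 2.1.1, with annotation of Ensembl release 72, noncoding regions masked, and multiread and fragment bias correction. The methods and the submitters' processing notes give different STAR versions (2.4.0 in the notes, which also name CASAVA 1.8.2), and the methods name a human genome, although all identifiers are of the mouse. The deposited FPKM values were used as they stand, without the authors' counts. Depth was read from the most common low value of FPKM times length in genes with a single transcript. This value was taken as a single fragment, and the depth is approximate. No counting error can be given, and precision rests on the spread between mice. An FPKM of 0 can be a failed estimate.

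Names, coordinates and transcript lengths (GRCm38) came from GENCODE release 21, which named 22671 of the 23474 identifiers. Length is the median over the principal transcripts. Each comparison used limma 3.58.1 in R 4.3.3 (lmFit, then eBayes with trend = TRUE) on log2(FPKM + 1) of its 6 libraries, for genes that averaged 1 FPKM or more, with Benjamini-Hochberg adjustment over all of them. Fold changes are on this scale, which understates those of low genes, and adjusted p-values in the report are from this test. The fit was tested on simulated data. Isoform shares were compared with two-sided exact permutation tests in scipy 1.17.1. Tables were handled in python 3.11.15 with pandas 2.3.3 and numpy 2.4.6. The members, marker lists, motifs and tests were chosen with earlier results of these data known. The genes named are all called members, the members with the highest and lowest fold change in each complex, all Sdh genes and the isoform families. Other members named, the promoters shown and the genes outside the list named for comparison were chosen after their values were seen.

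Replicate numbers were checked for pairing by correlating, over genes, how far same-numbered libraries lay from their group means. The values of 0.547, 0.342 and 0.122 for HFD against ND were all over 0.1, although neither methods nor labels say what a number shares. HFD replicate 3 correlated more with ND replicate 2, at 0.626, than with ND replicate 3. The main fits and the permutation tests took no account of the numbers, and the block was fitted as an alternative. With the replicate number as a block 0 of 44 members and 0 of 14430 genes were called in this comparison. The alternatives were a pseudocount of 0.1, other filters and scalings, all 12 libraries in 1 fit, the block, removal of a trend with length (loess, span 0.5), each library left out, and 2 added after seeing the data, removal of a trend with GC content and, for HFD against ND, the block without ND replicate 1.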

Additional observations from a re-analysis of the deposited data

How the results depend on the processing

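Members called fell from 11 to 0 in TJ against HFD without the filter on low values, with all 12 libraries in the fit and with the replicate block, and to 2 with the length trend removed, and were 12 or 13 under the other alternatives with all libraries. Calls over all genes were 2366 as tested, 382 without the filter, 1 with all 12 libraries and 1198 with the block, which take more genes or other degrees of freedom. The median log2 fold change was 0.11 with the length trend removed. In GT against HFD 0 members were called under each of these 3 settings, where calls over all genes went from 464 to 5, 1 and 5, and the median was 0.13 with median-of-ratios scaling and -0.016 with the length trend removed. In TJ against GT the count was 0 with a pseudocount of 0.1, without the filter, with a mean of at least 5 FPKM, with median-of-ratios scaling, with all 12 libraries and with the GC trend removed, 3 with quantile normalization and 2 with the replicate block, where 29 and 18 of all genes were called against 18 as tested, with a median of 0.087 with the length trend removed. In HFD against ND the median was 0.37 with the length trend removed. Where other settings moved a call the cause was not tested.

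By the check used, same-numbered libraries had correlations all over 0.1 in HFD against ND only. In the other comparisons the correlations went down to -0.051 for TJ against HFD, -0.07 for GT against HFD and -0.213 for TJ against GT. HFD replicate 3, however, correlated at 0.626 with ND replicate 2 and at 0.122 with ND replicate 3. The check therefore does not establish a pairing by number. In HFD against ND the block changed no call of members, and calls over all genes went from 255 to 0.

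With 1 replicate left out, members called ranged from 0 to 23 (TJ against HFD), 0 to 4 (GT against HFD), 0 to 4 (TJ against GT) and 0 to 4 (HFD against ND, the 4 without ND replicate 1), and the medians from 0.39 to 0.80, from -0.020 to 0.055, from 0.37 to 0.81 and from -0.58 to -0.13. In TJ against GT the count was 4 without TJ replicate 2 and without TJ replicate 3, where calls over all genes rose to 81 and 75, and 0 without TJ replicate 1 or any GT replicate.

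Of 1203 values under alternatives, for the 80 fold changes of members that the text gives or the rule names, 1009 kept direction and side of the threshold, 124 lost the call, 35 gained one and 35 changed sign. In TJ against HFD, Atp5a1 was at -0.22, Atp5b at -0.243 and Sdha at -0.025 with quantile normalization. With the length trend removed Atp5b was at -0.097, Atp5c1 at -0.106, Atp5e at -0.0056, Atp5mpl at -0.458, Cox5a at -0.13, Cox7a2l at -0.036 and Uqcrb at -0.336. With 1 replicate left out Atp5b ran from -0.0126 to 0.218 and Cox6b2 from -0.954 to 0.528, and Uqcrc2 was at 0.072 with median-of-ratios scaling, 0.11 with the GC trend removed and -0.15 to 0.024 with 1 replicate left out. In GT against HFD, Sdhb was at 0.0018 with median-of-ratios scaling, and Cox6b1 ran from -0.011 to 0.147 with 1 replicate left out. In TJ against GT, Cox7b was at -0.00068 with the length trend removed and Uqcrc2 at 0.0196 with the GC trend removed. In HFD against ND, Sdhb was at 0.21 and Uqcr11 at 0.25 with the length trend removed and Sdha at -0.15 and Uqcrfs1 at -0.12 with median-of-ratios scaling, and with 1 replicate left out Cox5a ran from -0.034 to 0.976, Sdha from -0.748 to 0.498, Uqcrq from -1.59 to 0.273, Atp5a1 ran from -0.038 to 0.77, Sdhc from -0.17 to 0.61 and Uqcrfs1 from -0.21 to 0.39. With the block and without ND replicate 1, Atp5a1 was at -0.026, Sdha at -0.673, Uqcrq at 0.207, Sdhc at -0.13 and Uqcrfs1 at -0.21. Of the 28 differences in isoform share, 6 changed sign when 1 library was left out. In percentage points they ran from -19.08 to 2.671 (Atp5g1) and from -3.156 to 18.9 (Atp5g3) in HFD against ND, both changing sign without ND replicate 1, from -8.1 to 0.167 (Cox7b2) and from -6.02 to 0.055 (Cox8c) in GT against HFD, both without HFD replicate 1, from -0.758 to 1.155 for Atp5g2 in TJ against HFD and from -0.019 to 0.622 for Atp5g1 in TJ against GT. Depth limits the isoforms near 0, where the files give no counting error.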

Other observations

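Cyct, the testis form of cytochrome c, which carries electrons between complexes III and IV, was at 79.8 FPKM in ND replicate 1, 5.25 FPKM in ND replicate 3 and 2.02 FPKM in HFD replicate 1, and at most 0.482 FPKM in the other 9 libraries. Cycs, the form of other cells, was at 15.9 FPKM in ND replicate 1 and at 26.9 to 50.2 FPKM in the others. Tfam, which packs and transcribes mitochondrial DNA, was at 609 FPKM in ND replicate 1 and at 17.1 to 50.2 FPKM in the others. Atpif1, the inhibitor of the ATP synthase, was at 277 FPKM in ND replicate 1 and at 11.8 to 38.5 FPKM in the others.

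Of the 37 genes of the complex I list, Ndufa4 included, 1 was called lower and none higher in GT against HFD, against 1.81% and 1.83% of all genes tested. Their median log2 fold change was 0.14. In TJ against GT 1 of them was called higher, against 0.139% of all genes tested, with a median of 0.81. Of 12 tested genes of the mitochondrial DNA none was called in GT against HFD by limma, with a median of 0.25. Usmg5, a small protein bound to the ATP synthase, was at 256, 367 and 228 FPKM with TJ, 208, 212 and 215 FPKM with GT and 193, 168 and 150.2 FPKM with HFD, and was not called in TJ against HFD (0.71, SE 0.21, adjusted p = 0.0529, limma).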
